A study of Mus musculus with 6 samples.

Results

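The peaks described here were intergenic FXR binding sites far from a gene start in the annotation of the deposited tables. They were the rows of both deposited FXR peak tables whose annotation was intergenic and whose distance to the nearest annotated transcription start site (TSS) was over 100 kb. In the WT list, 1214 of 20040 peaks met this rule (6.06%, 95% Wilson interval 5.74 to 6.40%). In the LKO list, 737 of 12495 did so (5.90%, 5.50 to 6.33%). Peaks of the lists were matched where they overlapped by at least 1 bp, which paired 545 far peaks and left 669 in the WT list only and 192 in the LKO list only. The far peaks therefore stood at 1406 places among 22617 places with a peak in either list.

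FXR chromatin immunoprecipitation and sequencing (ChIP-seq) was performed on C57BL/6 liver, male per the text of the study, to compare genome-wide FXR binding with and without hepatic BCL6. The controls, WT, were Bcl6 fl/fl mice without Cre. The knockouts, LKO, were Alb-cre, Bcl6 fl/fl mice, in which the albumin promoter drives Cre in hepatocytes, so the other cells of the liver keep Bcl6 and the floxed alleles are shared by both groups. Each genotype had 2 ChIP libraries and 1 input library of chromatin that was not immunoprecipitated, and no age was given. Whole liver was used, so binding in fewer cells and weaker binding per cell cannot be told apart.

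FXR, encoded by Nr1h4, is the nuclear receptor that senses bile acids in the liver and intestine. It binds DNA mostly together with RXR, and its classical element is an inverted repeat of AGGTCA with a spacer of 1 base, called IR1. Sites far from promoters are usually studied as enhancers, which can contact promoters over long distances through looped DNA, so the nearest start site need not be the gene that a site controls. BCL6 is a zinc-finger repressor that recognizes elements like those of STAT5.

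The sequences of single far peaks are given first, read on the + strand of the GRCm38.p6 assembly (RefSeq), which has the mm10 coordinates of the tables. Capitals mark an IR1 with at most 2 mismatches among its 12 scored bases or, where a peak held none, each exact AGGTCA or its reverse complement. Each peak carries the name of the nearest gene given in the tables. A peak with neither has no capitals. The first set holds 5 of the 6 matched far peaks with the highest level over the 4 ChIP libraries among those without a high input value, and the other, at Rbbp8, is described with its values. The best IR1 alignment within each of these peaks had 3 or 4 mismatches, so these sites were strong without an IR1 under the rule used here.
A630001O12Rik peak, chr8:126734861-126735071: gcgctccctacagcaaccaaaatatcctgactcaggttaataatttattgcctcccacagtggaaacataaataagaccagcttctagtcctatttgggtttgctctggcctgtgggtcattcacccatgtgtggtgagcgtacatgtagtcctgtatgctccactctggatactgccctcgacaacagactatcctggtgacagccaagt
Ly86 peak, chr13:37537982-37538192: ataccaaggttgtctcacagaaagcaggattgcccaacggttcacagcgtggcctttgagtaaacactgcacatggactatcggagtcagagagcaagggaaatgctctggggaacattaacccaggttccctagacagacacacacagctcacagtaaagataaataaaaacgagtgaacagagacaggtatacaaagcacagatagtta
Tfap2c peak, chr2:172690955-172691165: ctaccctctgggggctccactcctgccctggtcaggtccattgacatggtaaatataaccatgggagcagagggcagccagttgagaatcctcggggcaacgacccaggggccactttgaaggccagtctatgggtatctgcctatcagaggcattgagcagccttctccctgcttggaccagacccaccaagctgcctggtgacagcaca
Mir3966 peak, chr10:97249815-97250025: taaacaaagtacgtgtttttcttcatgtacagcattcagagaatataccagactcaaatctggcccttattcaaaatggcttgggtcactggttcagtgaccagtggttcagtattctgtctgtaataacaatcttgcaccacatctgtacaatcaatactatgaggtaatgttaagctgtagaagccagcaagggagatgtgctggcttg
Ofcc1 peak, chr13:39664680-39664890: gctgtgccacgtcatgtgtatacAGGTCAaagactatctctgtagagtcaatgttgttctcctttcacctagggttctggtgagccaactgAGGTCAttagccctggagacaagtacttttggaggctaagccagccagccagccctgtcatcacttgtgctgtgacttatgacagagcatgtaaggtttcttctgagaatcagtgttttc

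The next set holds the 3 strongest matched far peaks that had an IR1, and the far peak with the largest difference between genotypes, the Cadm1 peak. The first 3 were chosen after their values were seen, to show the element in place. Each of these 4 had 2 mismatches to the repeat.
Nampt peak, chr12:32682118-32682328: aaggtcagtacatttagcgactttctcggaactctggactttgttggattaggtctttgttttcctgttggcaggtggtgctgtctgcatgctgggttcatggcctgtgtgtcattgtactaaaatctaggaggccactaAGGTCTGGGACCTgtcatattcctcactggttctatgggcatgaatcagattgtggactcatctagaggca
A1bg peak, chr15:61100890-61101100: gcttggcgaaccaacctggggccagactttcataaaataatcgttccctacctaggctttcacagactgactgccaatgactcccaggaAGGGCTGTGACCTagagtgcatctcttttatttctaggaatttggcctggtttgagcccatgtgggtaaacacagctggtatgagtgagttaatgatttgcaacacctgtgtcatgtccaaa
3110009F21Rik peak, chr12:109972480-109972690: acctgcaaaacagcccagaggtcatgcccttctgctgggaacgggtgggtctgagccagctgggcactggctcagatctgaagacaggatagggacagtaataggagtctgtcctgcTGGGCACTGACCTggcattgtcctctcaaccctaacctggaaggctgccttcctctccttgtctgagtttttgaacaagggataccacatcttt
Cadm1 peak, chr9:47400577-47400787: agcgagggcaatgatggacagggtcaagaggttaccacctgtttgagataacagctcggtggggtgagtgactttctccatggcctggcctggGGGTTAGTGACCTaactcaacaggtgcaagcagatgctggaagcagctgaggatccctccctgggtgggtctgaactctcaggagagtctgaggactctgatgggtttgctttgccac

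The third set holds far peaks that were among the strongest found in a single list, again without a high input value. The Ly86, Esrrg and Mir222 peaks were in the WT list only, and the Tmem131 and Gm32123 peaks in the LKO list only. Among these 5, only the Mir222 peak on chromosome X held an IR1, and it had 0 mismatches.
Ly86 peak, chr13:37537279-37537489: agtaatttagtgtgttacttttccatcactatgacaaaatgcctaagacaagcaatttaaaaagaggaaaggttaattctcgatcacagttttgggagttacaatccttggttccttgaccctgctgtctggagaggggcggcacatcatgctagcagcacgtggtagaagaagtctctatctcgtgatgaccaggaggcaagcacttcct
Esrrg peak, chr1:187504627-187504837: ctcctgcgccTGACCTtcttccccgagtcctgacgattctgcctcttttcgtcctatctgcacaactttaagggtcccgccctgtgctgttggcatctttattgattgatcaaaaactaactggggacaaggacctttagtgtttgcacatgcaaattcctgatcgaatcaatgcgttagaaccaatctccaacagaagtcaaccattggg
Mir222 peak, chrX:19272956-19273166: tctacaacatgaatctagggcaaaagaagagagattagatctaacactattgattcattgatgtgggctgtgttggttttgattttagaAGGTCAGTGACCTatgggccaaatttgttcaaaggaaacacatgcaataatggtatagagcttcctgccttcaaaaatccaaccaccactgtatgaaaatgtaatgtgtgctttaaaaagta
Tmem131 peak, chr1:37061316-37061520: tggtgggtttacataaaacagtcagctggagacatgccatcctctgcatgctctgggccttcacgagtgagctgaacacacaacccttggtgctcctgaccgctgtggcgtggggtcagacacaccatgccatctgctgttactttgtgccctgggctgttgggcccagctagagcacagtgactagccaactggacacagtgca
Gm32123 peak, chr14:24807099-24807303: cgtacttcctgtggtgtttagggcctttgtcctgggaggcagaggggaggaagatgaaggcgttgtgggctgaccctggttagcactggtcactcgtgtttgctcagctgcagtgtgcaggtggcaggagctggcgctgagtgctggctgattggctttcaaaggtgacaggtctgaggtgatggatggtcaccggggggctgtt

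The last pair holds the far peak with the highest input value of each list, Rab10os in the WT list and Inhbb in the LKO list, because the input value is the check on each peak. The WT sequence lay wholly in the GSAT_MM major satellite repeat.
Rab10os peak, chr12:3109887-3110097: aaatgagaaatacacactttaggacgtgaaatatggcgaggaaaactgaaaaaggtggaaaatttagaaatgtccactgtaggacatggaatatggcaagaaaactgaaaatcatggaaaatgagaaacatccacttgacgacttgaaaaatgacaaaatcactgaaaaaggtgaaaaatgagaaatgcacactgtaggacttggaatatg
Inhbb peak, chr1:119295279-119295483: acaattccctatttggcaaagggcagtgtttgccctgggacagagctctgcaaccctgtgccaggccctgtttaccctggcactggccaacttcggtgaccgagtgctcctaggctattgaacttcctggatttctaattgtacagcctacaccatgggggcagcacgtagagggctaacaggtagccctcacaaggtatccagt

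The distances were spread widely. The median far peak lay 165189 bp from its start site in the WT list and 165305 bp in the LKO list, with quartiles of 123464 and 255622 bp in WT and of 126028 and 243988 bp in LKO. Between 100 and 200 kb there were 763 WT and 467 LKO peaks, between 200 and 500 kb 371 and 237, and beyond 500 kb 80 and 33. Downstream of the nearest start site lay 535 WT far peaks (44.1%, 41.3 to 46.9%) and 335 LKO far peaks (45.5%, 41.9 to 49.1%), and the others lay upstream of it.

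**Figure D1:**
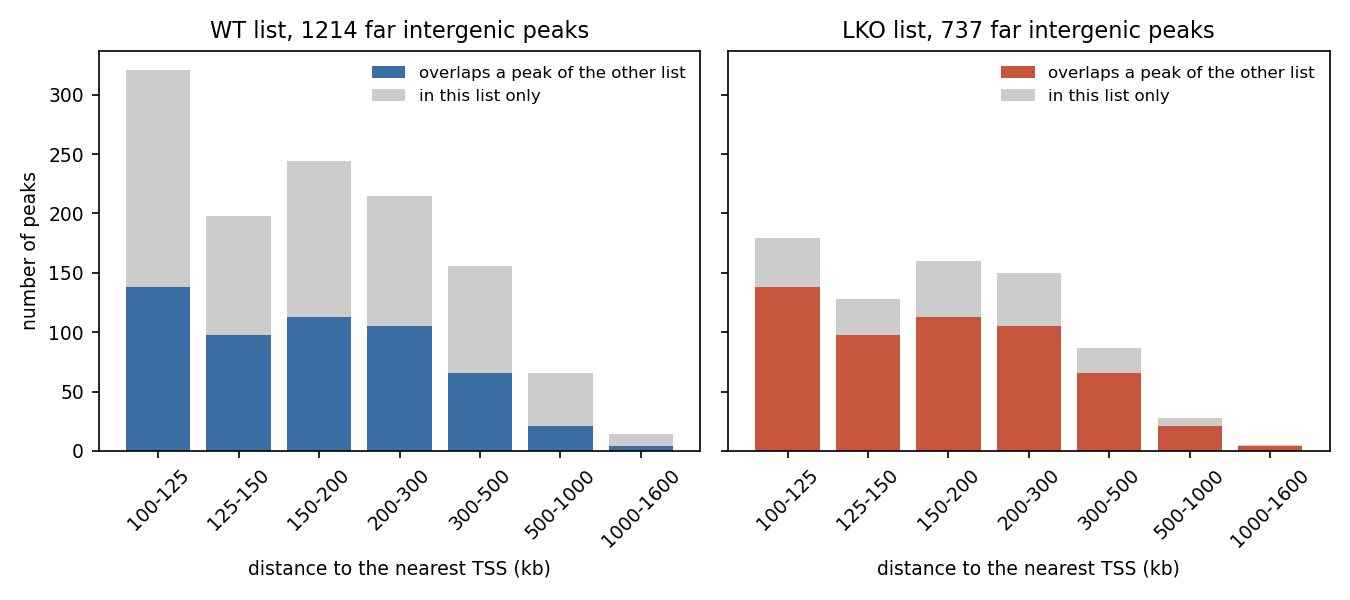
Number of far intergenic peaks (y axis) by distance to the nearest TSS in kb (x axis) in the WT list (left) and the LKO list (right), with the part that overlapped a peak of the other list in colour and the rest in grey. The distance classes are of unequal width. The class nearest to genes held 321 WT and 179 LKO peaks, and the last, over 1000 kb, held 14 and 5.

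The farthest site found in both lists lay 1567762 bp from the start of Efnb2, which encodes the membrane ligand ephrin-B2. On the log2 scale of the tables its values were 5.98 and 6.97 in the 2 WT libraries and 6.69 and 6.23 in the 2 LKO libraries, and it held an IR1 with 2 mismatches. The WT-only peaks at Gm20268 (1578463 bp) and Lrrc4c (1529144 bp) were weak, at 3.09 and 3.46 and at 3.12 and 3.78 in the WT libraries. In the LKO list the next farthest were an LKO-only peak 1455746 bp from Cdh11 (3.78 and 3.69) and a matched peak 1167510 bp upstream of Nudt12 (5.26 and 4.89). Around the limit itself, the nearest members were the WT-only Pawr peak at 100102 bp and the 1700029N11Rik peak at 100201 bp in WT, and the 1700029N11Rik (100212 bp) and 4930459C07Rik (100325 bp) peaks in LKO. Just inside it lay the Mir680-3 (99899 bp) and Ccnl1 (99848 bp) peaks in WT and the Ccnl1 (99837 bp) and Mir6344 (99383 bp) peaks in LKO. The values of the WT libraries were 2.82 and 4.03 at Pawr, 6.53 and 7.15 at 1700029N11Rik, 3.73 and 4.85 at Mir680-3, and 5.90 and 6.64 at Ccnl1, so strong and weak peaks stood on both sides of the limit.

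How far a peak is depends on the annotation used. Against the GENCODE M21 gene models, which hold more long noncoding transcripts, 1001 WT far peaks (82.5%, 80.2 to 84.5%) and 601 LKO far peaks (81.5%, 78.6 to 84.2%) had a start site within 100 kb. The median distance to a GENCODE start site was 33794 bp in WT and 34369 bp in LKO. In WT, 251 far peaks lay inside a GENCODE gene, 182 of them inside a long noncoding one, and in LKO these numbers were 147 and 98. Inside a GENCODE protein-coding gene lay 74 WT far peaks (6.10%) and 49 LKO far peaks (6.65%). The Tmem131 peak shown above was among them, in Vwa3b. The peaks that stayed outside genes and over 100 kb from any start site under GENCODE were 191 in WT (15.7%, 13.8 to 17.9%) and 124 in LKO (16.8%, 14.3 to 19.7%). The Ofcc1 peak shows the difference: 623226 bp from a start site in the tables, it lay 48 bp from the start of the GENCODE gene Gm47352.

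Protein-coding start sites were described by the interval around a far peak, which gives no distance from the peak to the nearest of them. The interval between the GENCODE protein-coding start sites on either side of a far peak had a median of 678433 bp in WT and 654798 bp in LKO, and it was over 1 Mb for 370 of 1210 WT peaks (30.6%) and 201 of 736 LKO peaks (27.3%). DNA over 100 kb from a curated RefSeq start site and outside curated transcripts made up 28.7% of the sequenced genome. It held 1.39 WT peaks and 0.861 LKO peaks per Mb, against 10.1 and 6.27 per Mb elsewhere. In this DNA lay 1042 WT far peaks (85.8%) and 648 LKO far peaks (87.9%), so the other far peaks did not meet that definition. Chromosome 8 had the most far peaks (120 in WT and 81 in LKO), chromosome X had 17 and 10, and chromosome Y had 0 in both lists.

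The level of each peak was read as a regularized log2 tag value for each library, made by the authors within a table, and peak strength is the mean over the 2 ChIP libraries of that table. The median WT far peak had 4.21 in replicate 1 and 4.85 in replicate 2, against 4.34 and 4.91 over all WT peaks. The median LKO far peak had 4.80 and 4.63, against 4.87 and 4.68 over all LKO peaks. The median strength of far peaks was thus lower than that of the whole list by 0.11 in WT (SD of the 2 libraries 0.051) and by 0.059 in LKO (SD 0.016), the same direction in 4 of 4 ChIP libraries, and it stood at the 45.6th percentile of the WT list. In LKO the sign turned under 2 alternatives given in the closing section. The gap was small beside the spread of the peaks themselves, whose quartiles in WT replicate 1 were 3.53 and 4.99.

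Far peaks were about as common among the strongest sites as in the lists as a whole. They made up 6 of the 100 strongest WT peaks and 64 of the 1000 strongest (6.40%), and 10 and 59 in LKO (5.90% of the 1000). The peak upstream of A630001O12Rik ranked 35th among the 20040 WT peaks by strength. Intergenic peaks nearer to genes had similar medians: those 20 to 100 kb away had 4.29 and 4.87 in WT and 4.83 and 4.64 in LKO, and those within 20 kb had 4.36 and 4.95 in WT and 4.88 and 4.69 in LKO.

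**Figure D2:**
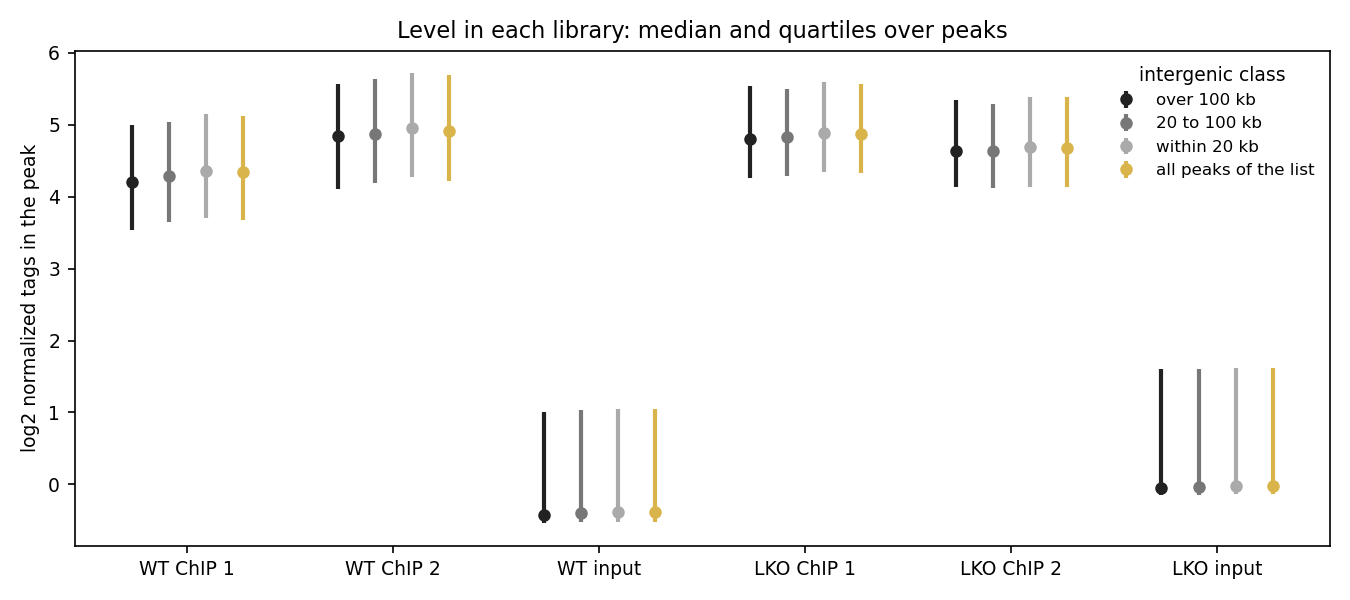
Regularized log2 tag value (y axis) in each of the 6 libraries (x axis) for far intergenic peaks, the 2 nearer intergenic classes and all peaks of the list. Points are medians over peaks and bars run from the lower to the upper quartile. Far peaks sat slightly under the other classes in the ChIP libraries (4.21 against 4.34 over all peaks in WT replicate 1), and the medians of the inputs were -0.42 in WT and -0.05 in LKO.

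Depth limited WT replicate 2. It held 2883717 tags, against 19022618 to 22637613 in the other ChIP libraries and 6935001 to 6964271 in the inputs. From these totals the median far peak was estimated to hold 8.63 tags in that library, 36.5 in WT replicate 1, and 35.1 and 33.2 in the LKO libraries. Only 501 of the 1214 WT far peaks (41.3%) reached 10 estimated tags in both replicates. Across the far peaks, replicate values had a Pearson r of 0.86 in WT (1214 peaks) and 0.89 in LKO (737 peaks), as over all peaks (0.86 and 0.90). These are descriptions, because the values of a table were regularized together.

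The inputs were low at nearly all far peaks. The median input value was -0.42 in WT and -0.05 in LKO, and 909 WT far peaks (74.9%) and 540 LKO far peaks (73.3%) were estimated to hold under 1 input tag. The ChIP strength was above the input at every far peak, by at least 2.42 in WT and 1.90 in LKO, with medians of 4.47 and 4.36. High input was set as above the 95th percentile of all peaks of a list, which was 1.85 in WT and 2.49 in LKO, or an estimated 2.61 and 2.30 input tags. By this measure 44 WT far peaks (3.62%, 2.71 to 4.83%) and 31 LKO far peaks (4.21%, 2.98 to 5.91%) had high input, against the 5% that the percentile fixes for each list.

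The far peaks with the highest WT input were satellite DNA. The 3 highest all lay in GSAT_MM repeats, nearest to Rab10os on chromosome 12 (input 5.04, ChIP 6.95 and 8.15) and to Gm5458 on chromosome 14 (input 4.24, ChIP 6.29 and 7.42, and input 3.89, ChIP 7.25 and 8.41). Each had no partner in the LKO list. Of the far peaks with high input, 29 of 44 were matched in WT and 30 of 31 in LKO. Of those with low input, 516 of 1170 (44.1%) and 515 of 706 (72.9%) were matched. The matched shares by input were not computed over all peaks. The highest LKO inputs were at Inhbb on chromosome 1 (3.40, ChIP 7.47 and 7.19), Gm46545 on chromosome 16 (3.36, ChIP 5.64 and 5.43) and Cyp26a1 on chromosome 19 (3.36, ChIP 5.70 and 5.30). All 3 overlapped a WT peak, and the WT input there was 1.19, -0.26 and -0.19.

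Repeats were not frequent. In the detailed annotation of the tables, 940 WT far peaks (77.4%) and 600 LKO far peaks (81.4%) lay outside any named repeat or CpG island. Long terminal repeats held 111 WT far peaks (9.14%, 7.65 to 10.9%) and 61 LKO far peaks (8.28%, 6.50 to 10.5%). SINEs held 53 WT far peaks (4.37%, 3.35 to 5.67%), against 451 of the nearer intergenic peaks (7.70%, 7.05 to 8.41%), and in LKO 3.80% (2.64 to 5.44%) against 6.59% (5.82 to 7.46%). The most frequent single repeat was RSINE1, a rodent SINE, with 12 WT far peaks, 8 of them matched and 3 with an IR1. Soft-masked bases made up a mean of 10.9% of a WT far peak and 9.06% of an LKO one, against 11.0% and 9.75% over all peaks. The far peaks were poorer in G and C, with a mean GC content of 46.4% in WT and 48.1% in LKO against 50.6% and 51.5% over all peaks, and the WT value was 43.1% beyond 500 kb.

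Motifs were searched on both strands within 100 bp of the peak centre, and windows of the same length 2 kb to either side gave the background. An IR1 with at most 2 mismatches was found in 169 WT far peaks (13.9%, 12.1 to 16.0%) and 136 LKO far peaks (18.5%, 15.8 to 21.4%), and in 0.824% and 1.09% of their flanks. Over all peaks of the lists the shares were 11.8% (11.4 to 12.3%) in WT and 16.2% (15.6 to 16.9%) in LKO. The IR1 sat near the summit, at a median of 15 bp from the centre in both lists, and within 25 bp in 123 of 169 WT and 92 of 136 LKO cases. Most were imperfect: of the 169, 4 had 0 mismatches, 28 had 1 and 137 had 2.

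In the WT list the share of far peaks with an IR1 was 12.6% (10.4 to 15.1%) at 100 to 200 kb, 15.6% (12.3 to 19.7%) at 200 to 500 kb and 18.8% (11.7 to 28.7%) beyond 500 kb, with intervals that overlapped. In the LKO list no such order was seen, at 18.2%, 19.4% and 15.2%. In 4 classes of WT strength of equal size over the list, from weakest to strongest, 11.4% (8.48 to 15.1%), 9.54% (6.72 to 13.4%), 12.6% (9.27 to 17.0%) and 23.4% (18.7 to 28.7%) of far peaks held an IR1. The other peaks held it in 8.003%, 8.18%, 10.7% and 19.8%, so in both sets the strongest class stood apart. WT far peaks with an IR1 had medians of 4.69 and 5.12 in the 2 libraries, and those without had 4.15 and 4.80.

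Motifs of other liver factors were also present. The element TTGCNNAA of C/EBP factors, which are central regulators of hepatocyte genes, was found in 23.8% of WT far peaks (21.5 to 26.3%) and 22.5% of LKO far peaks (19.7 to 25.7%). Over all peaks it was found in 16.5% and 15.2%, in intergenic peaks 20 to 100 kb away in 18.96% and 17.3%, and in the flanks of far peaks in 8.94% and 9.09%. The FOXA element TGTTTAC, bound by the pioneer factors FOXA1 and FOXA2, was found in 9.97% (8.41 to 11.8%) of WT and 8.68% (6.86 to 10.9%) of LKO far peaks, against 6.71% and 6.75% over all peaks. The AP-1 element TGANTCA was found in 11.4% (9.70 to 13.3%) and 11.1% (9.05 to 13.6%), against 7.91% and 8.33%. For C/EBP and AP-1 the intervals of the far peaks lay above those of all peaks, of which the far peaks are a part, in both lists. For FOXA they did so in WT and overlapped in LKO. The flanks of far peaks also held these elements more often than the flanks of all peaks. For AP-1 the flank shares were 6.63% in WT and 6.72% in LKO, against 5.83% and 5.77%. For FOXA they were 3.34% and 4.07%, against 2.74% and 2.81%, and for C/EBP the flanks of all peaks had 7.82% and 7.52%. In intergenic peaks 20 to 100 kb away, AP-1 was found in 9.79% (8.76 to 10.9%) in WT and 10.2% (8.85 to 11.6%) in LKO, and FOXA in 7.45% (6.55 to 8.46%) and 8.12% (6.95 to 9.47%), and these intervals overlapped those of the far peaks. The C/EBP interval of that class was 17.6 to 20.4% in WT and 15.6 to 19.1% in LKO, under that of the far peaks in both lists. GC content differed too, as given above, and its part in these shares was not tested.

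The nuclear receptor elements differed less. A direct repeat of AGGTCA with a spacer of 1 base (DR1, at most 2 mismatches), the element of HNF4A, PPARA and RXR, was found in 13.8% of WT and 12.1% of LKO far peaks, against 12.8% and 11.9% over all peaks. An exact AGGTCA, which can be part of an IR1 or DR1, was found in 42.0% and 42.1%, against 40.3% and 41.3%. The other elements were not of nuclear receptors. TTCNNNGAA, shared by STAT5 and BCL6, was found in 8.81% (7.35 to 10.5%) of WT and 8.41% (6.62 to 10.6%) of LKO far peaks. Over all peaks it was found in 6.56% (6.23 to 6.91%) and 6.39% (5.97 to 6.83%), and in the flanks of far peaks in 7.25% and 6.11%. The far interval lay above that of all peaks in WT and overlapped it in LKO. It overlapped that of intergenic peaks 20 to 100 kb away, at 6.97 to 8.93% in WT and 6.49 to 8.93% in LKO. The inverted repeat of GTTAAT with a spacer of 1 base of HNF1 (at most 2 mismatches) was found in 3.79% and 3.26%, against 2.99% and 2.54% over all peaks, and the HNF6 element ATCGAT in 2.97% and 2.17%, against 2.33% and 2.01%.

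**Figure D3:**
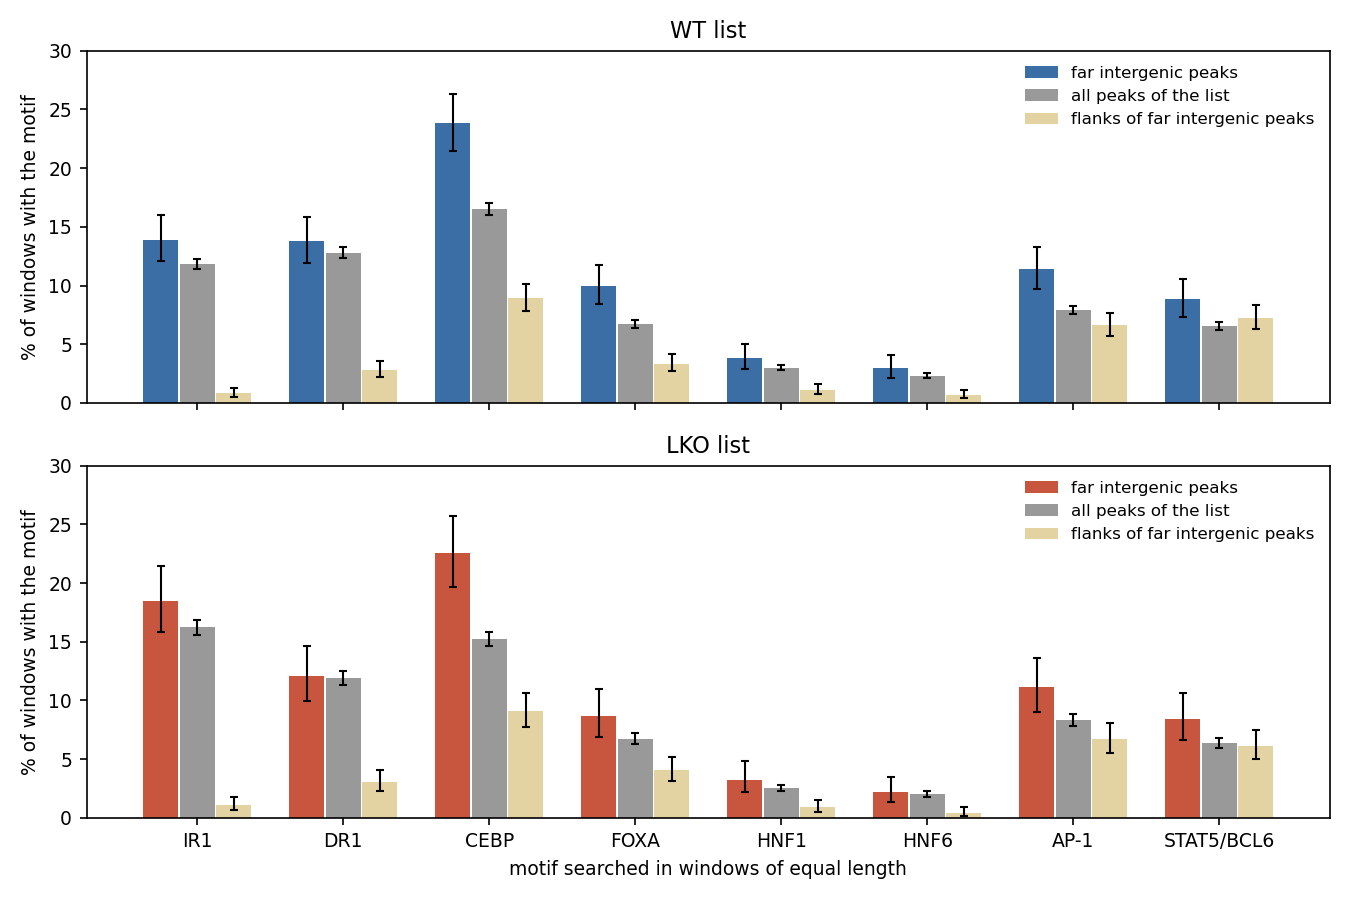
Share of windows with each motif (y axis, %) in far intergenic peaks, in all peaks of the list and in the flanks of far peaks, for the WT list (top) and the LKO list (bottom), with 95% Wilson intervals over windows as error bars. The IR1 stood highest over its flanks (13.9% against 0.824% in WT), and of the motifs drawn, which leave out the single AGGTCA, the C/EBP element was found most often (23.8% against 16.5% over all WT peaks).

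Of the WT far peaks, 545 (44.9%, 42.1 to 47.7%) overlapped an LKO peak, against 49.5% of all WT peaks. Of the LKO far peaks, the same 545 made up 73.9% (70.7 to 77.0%), against 79.4% of all LKO peaks. In nearer intergenic DNA the shares were 48.2% in WT and 77.6% in LKO at 20 to 100 kb, and 49.1% and 83.0% within 20 kb. The LKO list is the shorter one. When the WT list was limited to its 12495 peaks of highest Peak Score, the normalized tag number of the peak caller, 67.5% of its far peaks and 63.4% of the LKO far peaks were matched. The share over all peaks was not computed under this limit, so these values cannot be set beside those of the whole lists. Beyond 500 kb, 25 of 80 WT far peaks were matched (31.3%, 22.2 to 42.1%) and 25 of 33 in LKO.

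Whether a far peak was matched followed its strength. In WT the matched far peaks had medians of 4.96 and 5.49, and the WT-only ones 3.67 and 4.41. In LKO the medians were 4.99 and 4.84 for matched and 4.32 and 4.16 for LKO-only far peaks. In the 4 classes of WT strength from weakest to strongest, 13.1%, 29.6%, 57.2% and 89.8% of far peaks were matched, against 13.9%, 33.3%, 60.9% and 90.3% of the other peaks. In LKO the shares were 51.5%, 70.3%, 82.3% and 95.03%, against 57.9%, 75.7%, 88.5% and 96.6%. In every class of both lists the share was lower among far peaks than among the other peaks, and the intervals overlapped in all but the third LKO class. The WT-only far peaks held an IR1 less often (67 of 669, 10.0%) than the matched ones (102 of 545, 18.7%). All WT peaks split in the same direction, with an IR1 in 725 of 10122 unmatched (7.16%) and 1646 of 9918 matched peaks (16.6%). In LKO the shares were 16.1% of LKO-only and 19.3% of matched far peaks, with intervals that overlapped.

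**Figure D4:**
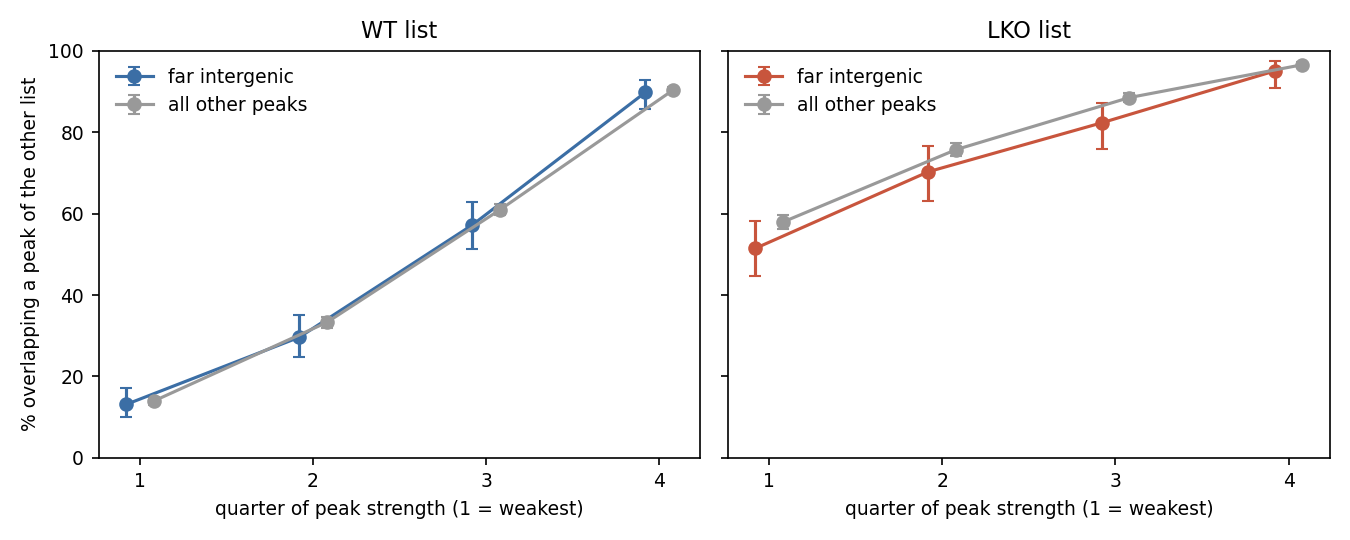
Share of peaks that overlapped a peak of the other list (y axis, %) by class of peak strength (x axis, 4 classes of equal size in the whole list, 1 the weakest), for far intergenic peaks (colour) and all other peaks (grey), in WT (left) and LKO (right), with 95% Wilson intervals over peaks. The share climbed from 13.1 to 89.8% in WT and from 51.5 to 95.03% in LKO, and the far peaks stayed close to the other peaks in every class.

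The strongest matched far sites without high input had high values in all 4 ChIP libraries. To set the tables side by side, each library was centred on its median over all 9918 matched peaks, because the tables were normalized separately. On this centred scale the peak upstream of A630001O12Rik had 3.13 and 3.47 in WT and 3.52 and 3.79 in LKO. The Ly86 peak, 192742 bp downstream of the start of a gene for an innate immune co-receptor, had 3.10 and 3.23 in WT and 3.42 and 3.73 in LKO. At both sites the LKO values lay above the WT values, as they did at 29.8% of all matched peaks. The differences were 0.36 and 0.41 on average, and 0.18 to 0.53 and 0.25 to 0.56 with 1 library left out.

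The Rbbp8 peak on chromosome 18, 190661 bp upstream of the gene of a DNA-end resection factor, had 2.78 and 3.25 in WT and 3.43 and 3.67 in LKO. The Tfap2c peak, 140069 bp from the start of the AP-2 gamma gene, had 3.05 and 3.40 in WT and 3.02 and 3.12 in LKO, and these ranges overlapped. The Mir3966 peak had 2.82 and 3.18 in WT and 3.16 and 3.40 in LKO, which also overlapped. The Ofcc1 peak had 2.80 and 3.07 against 3.23 and 3.45, without overlap, as at Rbbp8, where 29.8% of all matched peaks were higher in this way. All 6 stood about 3 log2 units above the median matched peak in both genotypes, and their input values were at most 0.16 in WT and 1.87 in LKO.

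The unmatched far peaks shown above were weaker than these. Those of the WT list, at Ly86, Esrrg (an orphan nuclear receptor gene) and Mir222, had centred means of 1.22 ± 0.04, 0.85 ± 0.29 and 0.74 ± 0.25 (SD, n = 2 libraries). Those of the LKO list, at Tmem131 and Gm32123, had 1.78 ± 0.08 and 1.58 ± 0.26. They ranked 1598th to 2623rd by strength in the WT list and 807th and 1008th in the LKO list. The Ly86 WT-only peak lay under 1 kb from the strong matched Ly86 peak, as their coordinates show.

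Over the 545 matched far peaks the centred LKO minus WT difference had a median of 0.060, with quartiles of -0.33 and 0.49 and a range of -2.31 to 3.55. Over all 9918 matched peaks the median was 0.026, and the pooled SD of the library medians of the far peaks was 0.024. The median was 0.10 without LKO replicate 1 and 0.030 without LKO replicate 2. Without centring it was -0.27 on the deposited scale and -1.09 after scaling by the library totals, so the sign of the common shift is set by the scale. No test between genotypes was made, because the tables share no scale and hold 2 libraries each.

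For single sites, both LKO values lay above both WT values at 178 of the 545 (32.7%, 28.9 to 36.7%), against 29.8% of all matched peaks, and below them at 140 (25.7%, 22.2 to 29.5%), against 25.2%. Both shares were near those of all matched peaks. The other 227 far peaks had values that overlapped between genotypes. Without the far peaks of high input, 158 of 489 lay above (32.3%) and 123 below (25.2%). The same shares over all matched peaks without high input were not computed.

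**Figure D5:**
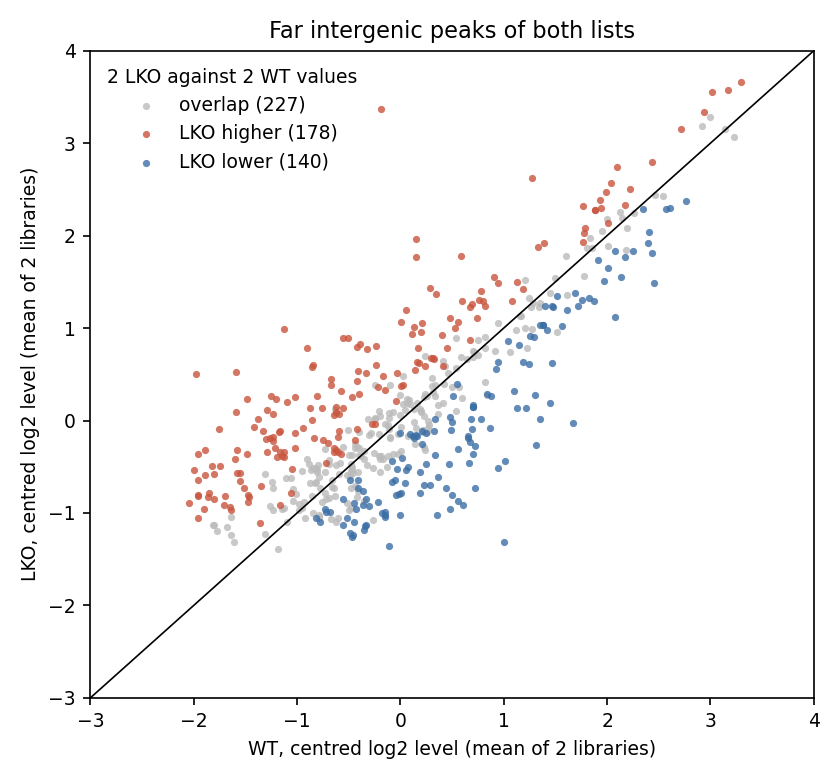
Centred log2 level in LKO (y axis) against WT (x axis) for the 545 far intergenic peaks of both lists, each point the mean of 2 libraries, with the diagonal as a line. Colours mark the 178 peaks with both LKO values above both WT values, the 140 with both below, and the 227 whose values overlapped. The point far above the others near a WT level of -0.19 is the Cadm1 peak, at 3.36 in LKO.

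The largest difference was at the peak 129488 bp upstream of Cadm1, the gene of a cell adhesion molecule. Its deposited values were 5.06 and 5.11 in WT and 8.42 and 8.20 in LKO, with inputs of 1.80 and 0.50. On the centred scale it had -0.19 ± 0.33 in WT and 3.36 ± 0.02 in LKO (SD, n = 2), a difference of 3.55, the largest of all 9918 matched peaks. Its IR1 lies at chr9:47400670-47400682 in the sequence above.

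The next largest positive differences without overlap or high input were at weak WT sites. The Crnde peak (chr8:92180865-92181075) had 3.49 and 3.09 in WT and 5.64 and 5.26 in LKO, a centred difference of 2.49, and an estimated 2.56 tags in WT replicate 2. The Klf12 peak (chr14:100360036-100360246) had 3.83 and 3.53 against 5.74 and 5.21, a difference of 2.13. By the same rule in the other direction, the St8sia3 peak on chromosome 18 had 6.10 and 6.45 in WT and 2.96 and 4.30 in LKO (-2.31). The 1700123O12Rik peak (chr4:10484575-10484785) had 6.53 and 7.36 against 4.78 and 5.05 (-1.70), and the peak 279204 bp from Maf, a transcription factor gene, had 6.40 and 6.78 against 5.12 and 4.25 (-1.58).

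The far peaks with an IR1 stood higher in LKO than those without. Over 102 matched far peaks with an IR1 in the WT list the median difference was 0.23, with 46 peaks above (45.1%) and 19 below (18.6%). Over the 443 without, it was 0.026, with 132 above (29.8%) and 121 below (27.3%). The same split over all matched peaks gave medians of 0.22 and -0.0084. With an IR1, 44.7% of all matched peaks were above and 17.2% below, and without, 26.9% and 26.8%. The far peaks thus resembled the whole list in this, and the difference itself was not tested. The centred WT medians of the far peaks were 0.22 with and -0.12 without an IR1, and the LKO medians 0.45 and -0.11.

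Some of the far peaks stood in groups, but another peak lay nearby less often than over the whole lists. Another peak of the list lay within 10 kb of 35.8% of WT and 27.1% of LKO far peaks, against 52.8% and 40.6% of all peaks. With gaps of at most 50 kb joined, the 1214 WT far peaks formed 749 groups, of which 516 were single peaks and 97 held 3 or more. In LKO, 523 groups held the 737 far peaks, 401 of them single and 49 with 3 or more. The median distance from a far peak to the next peak of any class in its list was 24324 bp in WT and 51978 bp in LKO, against 8898 and 15535 bp over all peaks.

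The largest WT group held 18 peaks over 257006 bp at chr13:37458690-37715695, between Ly86 and Rreb1, the gene of a zinc-finger factor that binds RAS-responsive elements, and 10 of them were matched. The next held 14 peaks at chr10:95680488-95840169 near Eea1, an early endosome gene, and Nudt4, with 6 matched. The third held 11 peaks at chr1:119163952-119302575 between Gli2, a Hedgehog pathway factor, and Inhbb, an activin subunit gene, with 10 matched. The same place was the largest LKO group, with 12 peaks, of which 10 were matched. Of 5 matched peaks at Inhbb, 3 were higher in both LKO libraries than in both WT libraries, as were 2 of 5 at Gli2, and 0 were lower at either gene. Of all matched peaks, 29.8% were higher and 25.2% lower. The peaks of both genes belong to the same group and are few, so no direction is read from them. The 3 at Inhbb include the far peak with the highest LKO input (3.40, against 1.19 in WT).

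By nearest gene, the WT far peaks were assigned to 656 genes and the LKO far peaks to 472, with 393 genes in common (59.9% and 83.3%). Of the WT genes, 399 had 1 far peak (60.8%). Protein-coding genes were nearest to 879 WT far peaks (72.4%) and 539 LKO far peaks (73.1%), and noncoding RNA genes to 313 (25.8%) and 188 (25.5%).

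The genes with the most far peaks in WT were Sall1 with 12, Nr2f2, Rreb1 and Plpp3 with 11 each, and Cdh26, Eea1 and Gm16551 with 9 each. Sall1 and Nr2f2 encode transcription factors of development, and Plpp3 a lipid phosphatase. In LKO the same genes had 5, 8, 8, 4, 11, 4 and 3, and Gm29687 had 8 in both lists. Of the Sall1 peaks, all upstream and 168732 to 481088 bp away, 4 were matched, and the values ran from 2.70 to 5.47 in WT replicate 1 and from 3.75 to 5.65 in LKO replicate 1. Of the Cdh26 peaks 7 were matched, 3 of them higher in both LKO libraries and 1 lower, where 29.8% and 25.2% of all matched peaks were so.

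Among bile acid and FXR genes, the best known targets of this receptor, far peaks were almost absent. Of the 27 genes listed, 26 had a WT peak of some class and 22 an LKO peak, but only Nr5a2, the gene of LRH-1, had a far peak. Its 2 far peaks were WT-only, 211829 and 486563 bp upstream, with values of 3.58 and 4.99 and of 3.93 and 4.34, which was below the WT median strength for both. They made up 1.83% of the WT peaks of this list, against 6.06% of all WT peaks.

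Of 30 hepatocyte transcription factor genes, 4 had a far peak in WT (9 peaks) and 3 in LKO (6 peaks), with 5 matched. These were 5.29% and 6.06% of the peaks of this list, near the shares of far peaks in all peaks (6.06% and 5.90%). The strongest was 102634 bp from the start of Foxa2, a pioneer factor gene, at chr2:147942725-147942935, with 7.18 and 7.87 in WT and 6.89 and 6.68 in LKO, and a centred difference of -0.41 with values that did not overlap. Its WT input of 1.88 was above the 95th percentile, and its LKO input was 0.26. Both matched peaks at Nr3c1, the glucocorticoid receptor gene, were higher in both LKO libraries, where 29.8% of all matched peaks were so. The one 107562 bp downstream of its start had 4.46 and 4.74 in WT and 5.26 and 5.53 in LKO, a centred difference of 1.13, and an IR1 with 2 mismatches. The other, 107422 bp upstream, had centred values of -0.46 and -0.75 in WT and -0.41 and -0.26 in LKO. Its difference was 0.27, and 0.13 without WT replicate 2. Prox1 had 2 WT far peaks and Esrrg had 2, both of Esrrg WT-only.

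Growth hormone and growth factor signalling genes held 7 WT and 4 LKO far peaks at 4 and 3 of 16 genes, 3 of them matched. Far peaks were 7.69% of this list's peaks in both WT and LKO, near the share over all peaks. The Irs2 peak, 132343 bp upstream of the gene of an insulin receptor substrate, had 5.52 and 6.44 in WT and 5.13 and 5.04 in LKO (centred difference -0.57, no overlap). The matched Igf1 peak, 139766 bp upstream, had 4.53 and 5.22 against 4.94 and 4.19 (0.026, overlapping). Of the secreted plasma protein genes, only Gc, which encodes vitamin D binding protein, had far peaks, 4 in WT (3.92% of the peaks of that list) and 2 in LKO (3.51%). Both matched Gc peaks were lower in both LKO libraries, with centred differences of -0.76 and -1.38, where 25.2% of all matched peaks were lower. The first was -0.44 without LKO replicate 2, and the Irs2 difference was -0.37 without WT replicate 2.

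Developmental genes beside gene deserts held the most, as the choice of that list would give: 30 WT far peaks at 12 of 47 genes and 23 LKO far peaks at 11, with 16 matched. Far peaks were 27.03% of the WT peaks and 36.5% of the LKO peaks of this list. Of the 16, 8 were higher in both LKO libraries, 5 were lower and 3 overlapped, where 29.8% of all matched peaks were higher and 25.2% lower. Both matched peaks of Cdh2, the N-cadherin gene, were higher (differences of 1.15 and 1.44, at an estimated 3.31 and 2.80 tags in WT replicate 2), as were those of Foxp1 (1.32), Irx6 (1.03), Bmp2 (0.73) and Irx3 (0.71). Those of Mycn (-0.71), Tshz3 (-0.58), Klf4 (-0.53) and Tshz2 (-0.33) were lower. Several of these rested on single libraries. The second Cdh2 peak had centred values of -0.087 and -2.31 in WT and 0.23 and 0.24 in LKO, and its difference was 0.32 without WT replicate 2. With 1 library left out in turn, the differences ran from 0.41 to 1.04 at Bmp2, from 0.34 to 1.07 at Irx3, from -0.99 to -0.44 at Mycn, from -0.97 to -0.19 at Tshz3 and from -0.90 to -0.17 at Klf4.

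Nr2f2, which encodes COUP-TFII, had too few shared far peaks to be set apart from all matched peaks. Its 11 WT and 8 LKO far peaks, all upstream, shared 6 sites, of which 2 were higher and 1 lower in both LKO libraries, against the same 29.8% and 25.2%. The strongest, at chr7:70524849-70525059 in a B4A SINE, had 6.81 and 7.28 in WT and 6.99 and 6.76 in LKO. Those deposited values overlap, and it counted as higher only by its centred values, 1.80 and 1.74 in WT and 1.95 and 1.91 in LKO. The next, at chr7:70525519-70525729, had 6.48 and 6.77 in WT and 4.66 and 5.26 in LKO, a centred difference of -1.34. Its input was above the 95th percentile in WT (2.31) and under it in LKO (2.45). The other site counted as higher, at chr7:70549290-70549500, had centred values that nearly touched, -0.41 and -1.62 in WT and 0.11 and -0.39 in LKO.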

How the data were processed

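FXR ChIP-seq libraries, 2 per genotype with 1 input each, were aligned to mm10 by the authors with Bowtie 1.2, and peaks were called with HOMER 4.10, both named in the submitters' processing notes. Per the file headers, a HOMER command took the replicate ChIP libraries of each genotype together, with the input as control, to find peaks and test ChIP against input. The deposited library values are headed as tag counts but include values that are not whole and values below 0. They were read here as regularized log2 values, made separately for each genotype, which would shrink low values, and no source used here states this scale. All levels, differences and estimated tags rest on that reading. The deposited Peak Score is a normalized signal, and the focus ratio deposited by the authors is a fraction. The authors' fold changes, p-values and adjusted p-values of ChIP against input were not used, and 0 columns of per-sample values were left over.

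Peaks were taken by annotation and distance. The members, the named peaks and the gene lists were chosen with earlier results of these data known. The strongest matched and unmatched far peaks, those of highest input, the nearest to the limit, the farthest, those of the largest difference and every far peak of the listed genes could be named, by rank. A peak that this rule names is not reported here. High input was above the 95th percentile of the list. Tags were estimated as 2 to the power of the deposited value, times the library total over the mean total of that table. Shares carry 95% Wilson intervals, which cover counting over peaks only, not differences between mice, and nothing says how the libraries relate to animals beyond their labels. The overlap, motif and difference steps were tested on simulated data. Sequences and soft-masking came from RefSeq's GRCm38.p6. Its transcripts matched the distances of 93.6% of WT and 93.5% of LKO peaks of all classes within 2 bp, where the named transcript was found. The GENCODE comparison and leaving out 1 library in turn for named peaks were added after the data were seen. Python 3.11.15, pandas 2.3.3, scipy 1.17.1 and pysam 0.24.0 were used.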

Additional observations from a re-analysis of the deposited data

How the results depend on the processing

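Of 105 alternative values for 13 results, 61 stayed within the limit set for each result and 44 moved. The limit was a fixed fold range for counts and the Wilson interval for shares, which was also applied to the mean masked percent. For strengths and differences it was the SD of the library medians. No paired analysis was possible because the genotypes were not set against each other by any test. Counts followed the rule: 2329 WT and 1427 LKO peaks lay over 50 kb, 451 and 270 over 200 kb, 562 and 346 had a Peak Score at or above the median, and 191 and 124 were also far by GENCODE, an alternative chosen after seeing the data, as was scaling by library totals. The matched share was 50% in WT and 81.2% in LKO at or above the median Peak Score, 41.8% and 69.3% among peaks of low input in both lists, 67.5% and 63.4% with lists of equal length, and 70.2% in LKO by GENCODE. The IR1 share was 17.3% and 22.5% at or above the median Peak Score, 16.8% and 23.4% by GENCODE, 2.64% and 3.66% with at most 1 mismatch, and 16.2% in WT over 200 kb. The high-input share was 7.30% and 8.96% at or above the median Peak Score, 8.24% and 9.63% above the 90th percentile, and 2.42% in LKO by GENCODE. Peaks masked over more than 50% of their length were 3.62% and 2.44%, another measure than the mean masked share.

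The WT strength relative to all peaks was -0.18 over 200 kb, -0.033 at or above the median Peak Score, -0.053 by GENCODE, and -0.13 to -0.061 with a replicate left out. In LKO it was -0.031 over 50 kb, -0.028 as a mean over peaks, -0.064 to -0.042 with a replicate left out, and turned to 0.058 at or above the median Peak Score and 0.015 by GENCODE. The LKO minus WT difference was 0.094 at or above the median Peak Score, 0.11 as a mean over peaks, 0.11 by GENCODE and 0.030 to 0.10 with a replicate left out, but -0.27 uncentred on the deposited scale and -1.09 scaled by library totals. The cause of these changes was not tested. Depth limits WT replicate 2 most, where the median far peak holds an estimated 8.63 tags.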
